A study of Mus musculus with 10 samples.

Results

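Open chromatin regions shared by 2 to 4 of 10 bulk ATAC-seq libraries of the mouse ventral tegmental area were described. The peaks of all libraries on chromosomes 1 to 19 and X were pooled and merged wherever they overlapped by at least 1 bp. Of 74565 merged regions, 11424 held a peak of 2 to 4 libraries. A library is said below to hold a region when its own list has a peak there. The number of libraries with a peak chose these regions, so the counts of holders, the combinations of libraries, the widths and the strengths that follow are descriptions and were not tested.

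All mice had the genotype ArcCreERT2 x Sun1/+ and were adult, older than postnatal day 60. They had gone through early-life stress or standard rearing. The transgene pairs a tamoxifen-dependent Cre recombinase driven by Arc with a Cre-dependent tag on the nuclear envelope. The nuclei therefore divide into those that carried the tag (activated) and those that did not (non-activated), and magnetic immunoprecipitation against Sun1-myc-sfGFP separated them. The activated class rests on Arc-driven recombination in single animals, and the labels give no cell type for either class. There were 3 stressed activated libraries (male, male and female in replicates 1 to 3) and 2 standard-reared activated libraries (male and female). There were 3 stressed non-activated libraries (male, male and female) and 2 standard-reared non-activated libraries (both female). The 10 libraries came from 6 animals, 4 of which gave 1 library to each class. Those were the 3 stressed animals, with the same replicate number in both classes, and a standard-reared female that gave activated replicate 2 and non-activated replicate 1.

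ATAC-seq uses the Tn5 transposase to cut and tag DNA where nucleosomes leave it exposed, so that promoters, enhancers and insulators appear as peaks of fragments. Promoters of widely used genes tend to be open in most cell types, whereas distal elements such as enhancers are open more selectively. In a mixed tissue such as the ventral tegmental area, which holds dopamine, GABA and glutamate neurons beside glia, an element open in a small share of nuclei gives a low peak. A low peak lies close to the limit of the peak caller, and whether it is called then also depends on how deeply the library was sequenced. In bulk libraries, fewer cells with an open element and less opening per cell cannot be told apart. Distances to genes, gene names, promoter sequences, motifs and the markers of the labelled tissue are not analysed here, because the files use the build mm39 and the annotation at hand is of another build.

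The lists held 7075 to 50771 peaks per library, with a median of 15746. A pileup, the number of overlapping fragments at a peak's summit, was recovered from each peak's fold and p-value. The lowest pileup in a list was 6 or 7 fragments in 6 libraries (5 activated libraries and stressed non-activated replicate 1) and 2 to 4 in the other 4. The smallest peak was 134 to 161 bp wide in those 6 and 210 to 250 bp in the other 4. The 2 longest lists were stressed non-activated replicate 1, with 50771 peaks, and standard-reared activated replicate 1, with 39776. They came from different animals, both male.

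The regions of 2 to 4 libraries fell off steeply with the number of holders. Exactly 2 libraries held 6648 of them (58.2%), 3 libraries held 2859 (25.03%) and 4 libraries held 1917 (16.8%). On both sides of the limits stood 49141 regions held by 1 library and 1574 held by 5. In all, 8704 regions were held by 5 to 9 libraries and 5296 by all 10. The count per number of holders thus fell as far as 6 libraries, where 1442 regions stood, and was higher again at 7 to 10.

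Most of these regions were in the 2 longest lists. Of the stressed activated libraries, replicate 1 held 1583 of the 11424 regions, replicate 2 held 3524 and replicate 3 held 1429. The standard-reared activated libraries held 8561 and 2354 in replicates 1 and 2. The stressed non-activated libraries held 9495, 767 and 292, and the standard-reared non-activated libraries held 99 and 1437. The ranges of the activated and the non-activated libraries overlapped, and within each class 1 library stood far above the others. Stressed non-activated replicate 1 held 83.1% of all regions of 2 to 4 libraries and standard-reared activated replicate 1 held 74.9%. Both of these libraries held 7248 of them (63.4%), exactly 1 of the 2 held 3560 (31.2%) and neither held 616 (5.39%).

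**Figure D1:**
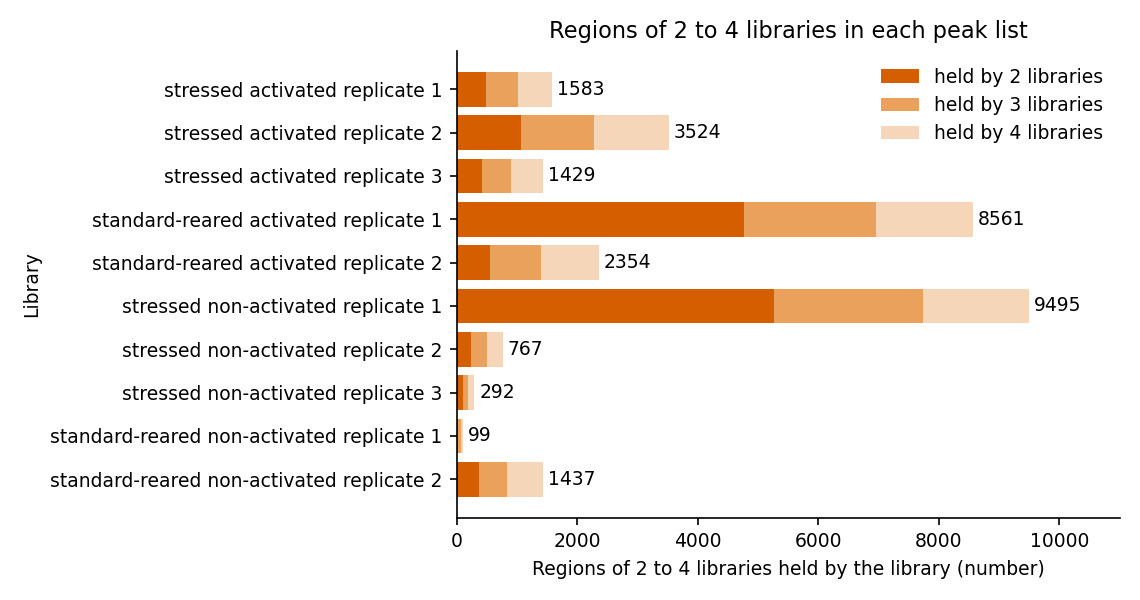
Number of regions of 2 to 4 libraries (x axis) held by each of the 10 libraries (y axis), with bars divided by how many libraries hold the region. Stressed non-activated replicate 1 (9495) and standard-reared activated replicate 1 (8561) stand above the other 8 libraries, which hold 99 to 3524.

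As a share of a library's own regions, the set ran from 1.42% in standard-reared non-activated replicate 1 to 22.2% in standard-reared activated replicate 1. The shares were 10.8%, 19.1% and 10.2% in stressed activated replicates 1 to 3 and 14.7% in standard-reared activated replicate 2. They were 19.02%, 6.17% and 3.28% in stressed non-activated replicates 1 to 3 and 10.05% in standard-reared non-activated replicate 2. In the shorter lists the regions of 2 to 4 libraries gave way to regions of 5 or more. Of the 6979 regions of standard-reared non-activated replicate 1, for example, 5296 were held by all 10 libraries and 1489 by 5 to 9.

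The combinations of libraries were set against what the list lengths alone predict. In that prediction each library holds a region independently, with a probability equal to its share of all merged regions, and the total for each number of holders is kept as observed. A second prediction was matched instead to the number of regions of 2 to 4 libraries that each library held. Of the 375 possible combinations of 2, 3 or 4 libraries, 251 occurred. Among the 45 pairs, 44 occurred, 4 of them more often and 41 less often than the list lengths predict, counting the empty pair.

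The pair of the 2 longest lists accounted for much of this. Exactly these 2 libraries held 3798 regions, 33.2% of the whole set and 57.1% of the regions of 2 libraries. The list lengths predict 1613, so the observed number was 2.35 times the prediction. Against the prediction matched to the regions per library, 3609, the ratio was 1.05. The next pairs each contained 1 of these 2 lists. Stressed activated replicate 2 with stressed non-activated replicate 1 held 506 regions (497 predicted from the list lengths), and standard-reared activated replicate 1 with stressed activated replicate 2 held 325 (263 predicted).

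**Figure D2:**
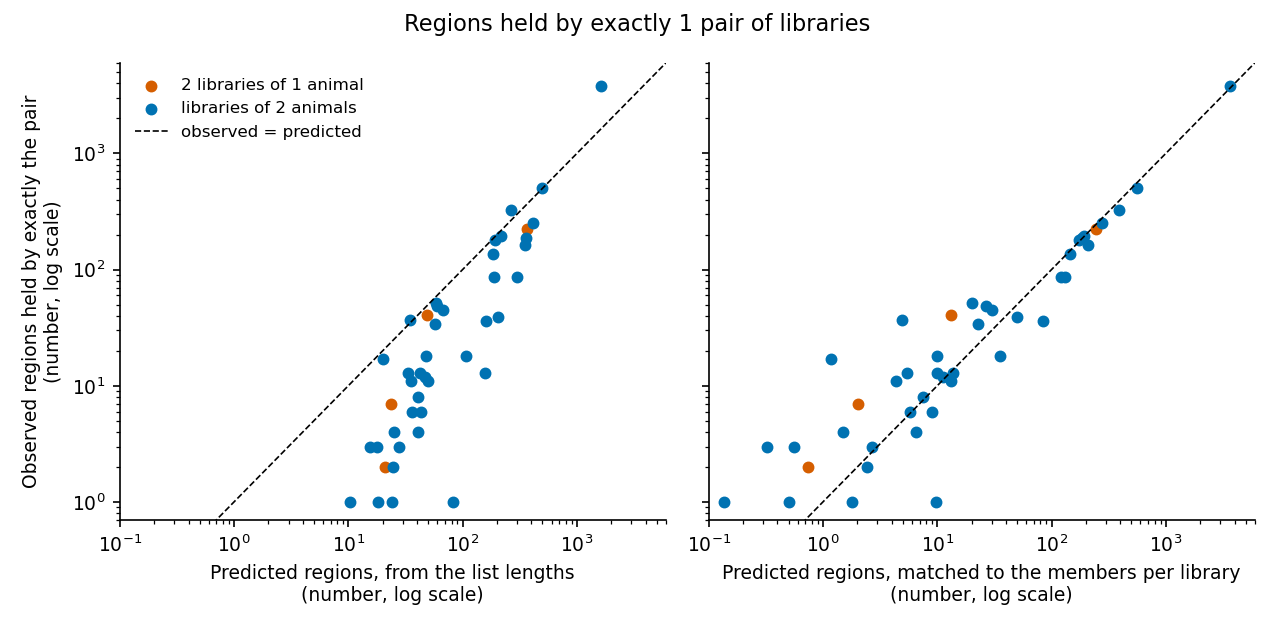
Observed number of regions held by exactly 1 pair of libraries (y axis, log scale) against the number predicted from list lengths (left) or matched to the regions of 2 to 4 libraries that each library holds (right), both on log scales, for the 44 pairs that occurred. Pairs from 1 animal are orange; the dashed line marks equality. On the left, most pairs lie below the line and the pair of the 2 longest lists (3798) lies above it; on the right the large pairs lie on the line and several small pairs above it.

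Among the 616 regions that neither of the longest lists held, some small pairs were more frequent than in the matched prediction. Stressed non-activated replicates 2 and 3 shared exactly 17 regions, against 1.18 in the matched prediction and 20.2 from the list lengths. Stressed activated replicate 3 and stressed non-activated replicate 2 shared 37, against 4.89 and 34.6. The matched prediction gave 288 regions held by neither longest list, and the list lengths 1241, so the observed 616 lay between the 2 predictions.

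The larger combinations added further libraries to the same pair. The commonest 3 libraries were standard-reared activated replicate 1, stressed activated replicate 2 and stressed non-activated replicate 1, which alone held 615 regions (241 predicted from the list lengths, 633 matched). Standard-reared activated replicates 1 and 2 with stressed non-activated replicate 1 held 548 (199.5 and 405 predicted). The commonest 4 libraries were standard-reared activated replicates 1 and 2, stressed activated replicate 2 and stressed non-activated replicate 1, with 361 regions (78.3 and 323 predicted). Of the possible combinations, 93 of 120 for 3 libraries and 114 of 210 for 4 libraries occurred.

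The regions were read against the study's activation contrast, which asks how open chromatin in nuclei with Arc-driven recombination differs from that in nuclei without it. Activated libraries alone held 1204 of the 11424 regions (10.5%), non-activated libraries alone held 391 (3.42%), and 9829 (86.0%) were held by both classes. The 2 longest lists are of different classes, so the 7248 regions that both held are among the 9829. Among all 25424 regions of 2 or more libraries, 4.76% were held by activated libraries only and 1.54% by non-activated libraries only. The rule that chose the regions limits the number of holders, so these shares are not compared. The list lengths predict 1400.3 regions of activated libraries alone and 1277 of non-activated libraries alone. The observed numbers were 0.860 and 0.306 times those predictions. With the matched prediction the ratios were 0.943 and 0.983. With all 10 libraries, activated libraries thus held fewer regions alone than either prediction gives. That direction turned without either of 2 libraries. The ratio to the list-length prediction was 1.67 without standard-reared activated replicate 1 and 1.57 without stressed non-activated replicate 1. It also turned with peaks of a -log10 q of at least 5 (1.07) and with summit windows (1.16). At equal list length, where each list was shortened to its 7075 peaks of lowest q, a largely different set of 2740 regions had 2 to 4 holders, since only 61 of the 11424 still did. In that set the ratios were 1.57 for activated and 1.38 for non-activated libraries alone.

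Regions of 1 class were narrower than those of both classes. The median width was 294 bp in regions of activated libraries alone, 338 bp in those of non-activated libraries alone and 389 bp in those of both. The width of the smallest peak also differed between the classes, as given above. Merged width also rises with the number of holders (medians 332, 413 and 473 bp for 2, 3 and 4 libraries). The part of either in these widths was not tested.

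Whole groups rarely shared a region that no other library held. Exactly the 3 stressed activated libraries held 13 regions (6.29 predicted from the list lengths, 3.60 matched). Exactly the 2 standard-reared activated libraries held 194 (218 and 193 predicted). Exactly the 3 stressed non-activated libraries held 3 (18.5 and 1.69 predicted), and exactly the 2 standard-reared non-activated libraries held 1 (18.2 and 0.501 predicted). The pair with 194 regions includes standard-reared activated replicate 1, one of the 2 longest lists.

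Rearing divided the set in a similar way. Stressed libraries alone held 1594 regions (13.95%), standard-reared libraries alone held 315 (2.76%) and both rearings held 9515 (83.3%). The 2 longest lists are of different rearings, so the 7248 regions that both held are among the 9515. The counts by rearing were not rerun without either of those lists. Among all regions of 2 or more libraries the shares of 1 rearing were 6.32% for stressed and 1.24% for standard-reared libraries. The observed numbers were 0.617 and 0.505 times those that the list lengths predict for stressed and for standard-reared libraries alone, and 1.02 and 0.856 times the matched prediction. There were 6 stressed and 4 standard-reared libraries, which both predictions take into account.

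Both libraries of 1 animal, and no other library, held 272 regions (2.38%). The list lengths predict 461 and the matched prediction is 263. Stressed replicate 1 gave 222 of them, stressed replicate 2 gave 41, stressed replicate 3 gave 7 and the standard-reared animal gave 2. The animal with the longest list thus supplied most of them. For stressed replicate 2 the list lengths predict 49.1 regions and the matched prediction is 13.1. Without stressed non-activated replicate 1, the ratio of observed to list-length prediction for both libraries of 1 animal was 1.07 in place of 0.590.

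The holders were also grouped by the kind of library, as read from its smallest peak. The 6 libraries with a smallest peak of 134 to 161 bp alone held 9113 regions (79.8%), the 4 with 210 to 250 bp alone held 38 (0.333%) and 2273 (19.9%) were held by both kinds. Among all regions of 2 or more libraries, 39.4% were held by the first kind only and 0.149% by the second only. For the first kind alone the list lengths predict 6163 regions and the matched prediction is 8959. For the second kind alone they are 129.8 and 8.47, so the observed 38 lay between them. All 5 activated libraries were of the first kind and 4 of the 5 non-activated libraries of the second. Activation and kind of library can be told apart here only through stressed non-activated replicate 1.

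The merged regions were intermediate in width. Regions of 2 to 4 libraries had a median width of 374 bp (quartiles 288 and 512 bp), against 685 bp for regions of 5 to 9 libraries, 928 bp for regions of all 10 and 208 bp for regions of 1 library. By number of holders the medians were 332, 413 and 473 bp for 2, 3 and 4 libraries, and 560 bp for 5 libraries just outside the limit. A merged region grows with each peak added to it, so width and number of holders are linked by construction. The widths ran from 150 to 2041 bp, and 180 regions (1.58%) were wider than 1 kb. The widest lay on chromosome 2 (118533012 to 118535052, mm39) and was held by 3 libraries.

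In 95.9% of the regions at least 1 base was covered by every holder. The median stretch common to all holders was 152 bp, against the median merged width of 374 bp. In the other 468 regions the peaks of different libraries were joined only through a peak between them. A library had more than 1 peak in 580 regions. The outermost summits of the holders lay a median of 89 bp apart (quartiles 42 and 162 bp), or 66, 113 and 146 bp with 2, 3 and 4 holders. Regions of 5 to 9 libraries had a median summit spread of 192 bp and regions of all 10 had 167.5 bp.

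**Figure D3:**
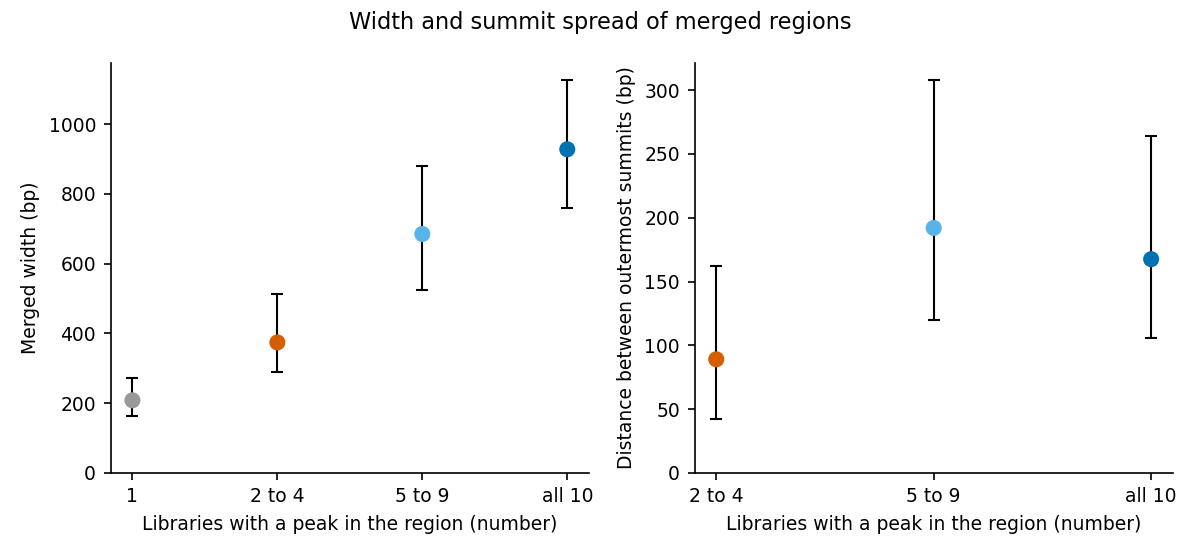
Merged width (left, bp) and distance between the outermost summits of the holding libraries (right, bp) by the number of libraries with a peak in the region; points are medians and bars the quartiles over regions. Regions of 2 to 4 libraries have a median width of 374 bp and a median summit spread of 89 bp, below those of 5 to 9 and of all 10 libraries.

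Summits were also compared for 2 libraries at a time. Over the 41 pairs of libraries that shared at least 20 regions of 2 to 4 libraries, the median distance between their summits ranged from 41 to 100 bp, with 64 bp for the middle pair. In regions of 5 to 9 libraries it ranged from 42 to 78 bp over 45 pairs (middle pair 60 bp), and in regions of all 10 from 26 to 64 bp (middle pair 44 bp). A median of 67.7% of these shared summits lay within 100 bp of each other, against 69.1% in regions of 5 to 9 libraries and 78.1% in regions of all 10.

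Peaks in these regions were weak within their lists. The fold of a peak, the authors' linear ratio of summit pileup over local background, was expressed as a percentile within its own list, since folds of lists of different depth are not on 1 scale. The median percentile over the regions of 2 to 4 libraries was 29.7, 26.1 and 26.0 in stressed activated replicates 1 to 3, and 39.5 and 21.4 in standard-reared activated replicates 1 and 2. It was 42.3, 18.7 and 15.5 in stressed non-activated replicates 1 to 3, and 20.4 and 16.3 in standard-reared non-activated replicates 1 and 2. The 2 longest lists again stood above the other 8, and the ranges of activated and non-activated libraries overlapped. A percentile depends on what else a list holds. These 2 lists held 26555 and 16405 regions of 1 library, where the others held 95 to 1491. In fold itself, the median over regions of 2 to 4 libraries was 5.42 in stressed non-activated replicate 1, the highest of the 10. It was 3.79 in standard-reared activated replicate 1, the lowest. The higher percentiles therefore do not show stronger peaks in those lists.

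In every library the median percentile was lower in regions of 2 to 4 libraries than in regions of 5 to 9, where it ran from 28.3 to 75.6, and than in regions of all 10, where it ran from 59.5 to 90.1. In regions of 1 library it ran from 7.26 to 36.6 and was higher than in regions of 2 to 4 only in stressed non-activated replicate 2, at 25.4. In absolute terms, the median pileup at the summits of regions of 2 to 4 libraries was 4 to 14 fragments per library, against 6 to 33 in regions of 5 to 9 libraries and 10 to 70 in regions of all 10. The lists themselves began at 2 to 7 fragments.

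**Figure D4:**
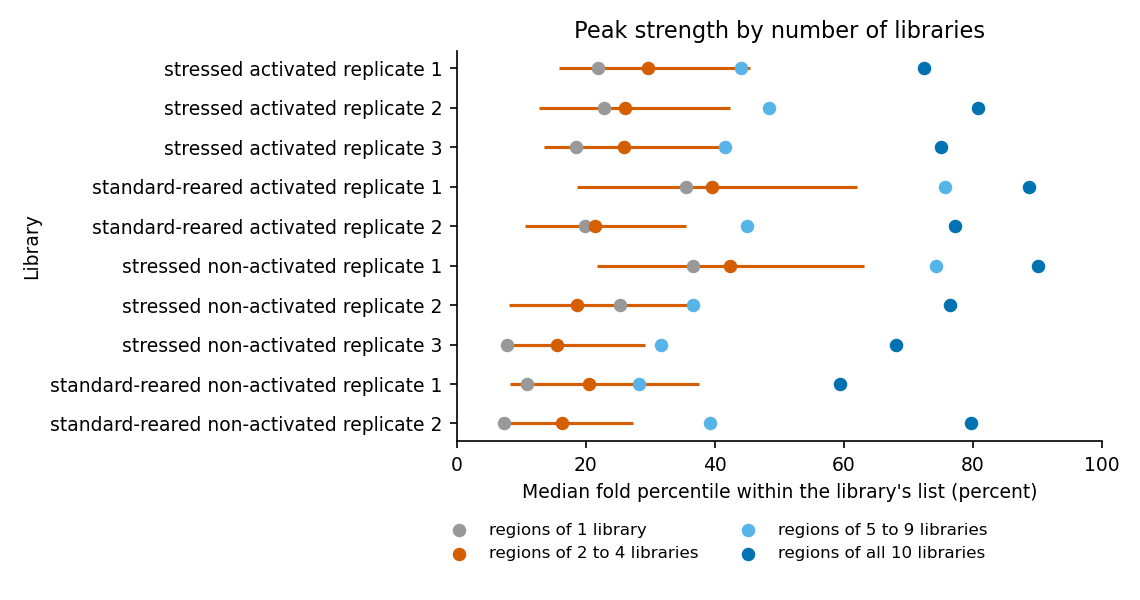
Median percentile of the authors' fold within each library's own list (x axis, percent) for regions of 1, 2 to 4, 5 to 9 and all 10 libraries, by library (y axis); the orange lines span the quartiles of regions of 2 to 4 libraries. In each library regions of 2 to 4 libraries lie below those of 5 to 9 and of all 10, and the 2 longest lists have the highest medians (42.3 and 39.5). Percentiles are relative to each list and do not compare strength between libraries.

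The same region often had a different rank in its holders. The median of the lowest percentile over the holders of a region was 16.6 and that of the highest was 53.9. These medians lay farther apart in regions of 5 to 9 libraries (14.5 and 82.2) and of all 10 (42.6 and 95.5). More holders widen such a range by construction. In 44.6% of the regions no holder placed the peak in the upper part of its list (above percentile 50), and in 799 regions (6.99%) every holder did. Every holder did so in 3.72% of regions of 5 to 9 libraries and 41.3% of regions of all 10. No holder did in 6.61% and 0.208% of them. Percentile 90 was reached in at least 1 holder in 255 regions (2.23%), against 27.8% of regions of 5 to 9 libraries and 74.0% of regions of all 10.

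Ranks of 2 libraries over the regions they shared were related loosely. Spearman's rho across regions had a median of 0.11 over the 41 pairs with at least 20 shared regions of 2 to 4 libraries, and ranged from -0.38 (standard-reared activated replicate 2 with stressed non-activated replicate 3, 36 regions) to 0.68 (stressed activated replicate 3 with standard-reared non-activated replicate 1, 23 regions). The median was 0.31 in regions of 5 to 9 libraries and 0.53 in regions of all 10, over 45 pairs each. Regions are not independent replicates and the 2 values of a region share its sequence, so these values are descriptions. A narrower range of percentiles can lower rho, and its part here was not tested.

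The 10 regions with the highest percentile in their weakest holder were all held by exactly 2 libraries. That measure favours few holders, since the lowest percentile had medians of 19.3, 14.5 and 11.7 with 2, 3 and 4 holders. The first lay on chromosome 5 (132921460 to 132921810, mm39), a stretch of 351 bp held by stressed activated replicate 2 (fold 8.93, percentile 90.4) and stressed non-activated replicate 1 (fold 12.5, percentile 88.7). Its pileups were 20 and 28 fragments over a background of 1.35 and 1.32. The other 9 were held by the pair of the longest lists, which also had the highest median percentiles in these regions, so the measure favours that pair too. None of the 10 had a peak of a further library within 500 bp.

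The second lay on chromosome 10 (21602571 to 21603398), with percentiles of 87.7 in standard-reared activated replicate 1 and 88.0 in stressed non-activated replicate 1. The third lay on chromosome X (73397036 to 73397350), with percentiles of 91.2 and 86.0 in the same 2 libraries. The widest gap between the holders among the 10 was in the ninth, on chromosome 17 (80884601 to 80885256), at percentile 82.8 with 16 fragments in standard-reared activated replicate 1 and 98.8 with 62 fragments in stressed non-activated replicate 1. These regions were thus strong in both lists that held them and missing from 8 others.

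Strong regions with more holders were looked up after the values were seen. The strongest with 3 holders lay on chromosome 2 (119019571 to 119020117), at percentile 80.3 in standard-reared activated replicate 1, 73.3 in standard-reared activated replicate 2 and 79.8 in stressed non-activated replicate 1. The strongest with 4 holders lay on chromosome 13 (30269067 to 30269275), at percentile 95.4 in stressed activated replicate 1, 73.9 in stressed activated replicate 3, 68.2 in standard-reared activated replicate 2 and 78.2 in stressed non-activated replicate 1. Standard-reared activated replicate 1, whose list is longer than those of 3 of its holders, had no peak there.

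Of the 13 regions held by exactly the stressed activated libraries, the strongest lay on chromosome 1 (162336927 to 162337298). Its fold was 4.72, 6.62 and 5.56 in replicates 1 to 3, at percentiles 51.5, 71.7 and 58.9, and 1 further library had a peak within 500 bp. The next lay on chromosome 17 (75793275 to 75793492), at percentiles 62.5, 59.9 and 42.6. The third, on chromosome 9 (124254333 to 124254539), had peaks of 4 further libraries within 500 bp. The strongest of the 194 regions of exactly the standard-reared activated libraries lay on chromosome 8 (3386661 to 3387142), at percentiles 70.7 and 71.7. Its folds were 4.93 and 7.38, with pileups of 12 and 13 fragments.

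Of the 3 regions of exactly the stressed non-activated libraries, the strongest lay on chromosome 15 (99157588 to 99158083), at percentiles 70.5, 70.2 and 53.2 in replicates 1 to 3. It was 7337 bp from the nearest region of all 10 libraries. The weakest of the 3 lay on chromosome X (169097229 to 169097565), at percentiles 0.576, 3.99 and 2.76. Peaks of 5 further libraries lay within 500 bp of it. The single region of exactly the standard-reared non-activated libraries lay on chromosome 11 (96954174 to 96954757), at percentiles 17.5 and 28.3. Among the 41 regions of exactly both libraries of the animal of stressed replicate 2, the strongest lay on chromosome 10 (32745641 to 32745962), at percentile 66.2 in its activated library and 54.9 in its non-activated one. For stressed replicate 1 it lay on chromosome 2 (39263168 to 39263386), at 68.0 and 82.4.

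Some regions had a peak of a further library close by. In 1055 regions (9.23%) a library that did not hold the region had a peak within 500 bp of its edge. Counting those peaks would raise 436 regions (3.82%) to 5 or more libraries. Whether such a peak belongs to the same element was not tested, and the count was not made for other classes. With a merging gap of 200 bp, 11457 regions had 2 to 4 holders. At equal list length, 10649 of the 11424 regions (93.2%) kept no peak in any of the shortened lists, 714 kept a peak in 1 list and 61 in 2 to 4.

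Along the chromosomes, the regions of 2 to 4 libraries lay near other regions. The median gap to the nearest merged region of any class was 5304.5 bp, against 7095.5 bp for regions of 5 to 9 libraries, 9711 bp for regions of all 10 and 6509 bp for regions of 1 library. Of the 2539 windows of 1 Mb with a region, 2076 had at least 1 region of 2 to 4 libraries, with a median of 3 per window. The densest were 69000001 to 70000000 on chromosome 11, with 32 among 114 merged regions, and 85000001 to 86000000 on chromosome 8, with 32 among 100. At least 20 stood in 17 windows.

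Distance to the nearest region open in all 10 libraries does not enter the rule and was therefore tested, with X chromosome share as a second measure of position. Both measures were chosen with the results of these lists known. Each was taken per library over the regions it holds, libraries of 1 animal were averaged where animals were compared, and 10 comparisons were adjusted together by the Benjamini-Hochberg method. A region belongs to several libraries, so the animals are not independent in their regions. Intervals for single libraries are exact (Clopper-Pearson) binomial intervals at 95% and cover counting error only.

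Regions of 2 to 4 libraries lay a median of 98499 bp from the nearest region of all 10 libraries, regions of 5 to 9 libraries 77800 bp and regions of 1 library 127182 bp. Within 10 kb were 825 of the 11424 (7.22%), 8.25% of regions of 5 to 9 libraries and 5.06% of regions of 1 library. Averaged over the 6 animals, the share within 10 kb was 7.50% ± 0.591 in regions of 2 to 4 libraries and 8.23% ± 0.112 in regions of 5 to 9 (SD, n = 6 animals each). The difference of -0.728 percentage points had a two-sided exact permutation p of 0.03125, the smallest that sign flips over 6 animals allow, and an adjusted p of 0.156. Against regions of 1 library, at 4.84% ± 0.866, the difference was 2.66 points, with the same exact permutation p of 0.03125 and adjusted p of 0.156. The share was thus lower than in regions of 5 to 9 libraries and higher than in those of 1 in all 6 animals. Neither difference passed an adjusted threshold of 0.05. With each p at its smallest possible value, not passing does not show that either difference is absent. The first ran from -1.50 (without stressed non-activated replicate 3) to -0.163 (without replicate 1 of the same group, where the exact permutation p was 0.594) with 1 library left out. Without standard-reared activated replicate 1 it was -0.510 (exact permutation p = 0.5). It turned to 0.691 points with a -log10 q of at least 5. The second shrank to 0.196 points with that limit (exact permutation p = 0.844) and to 0.965 points at equal list length.

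Per library, the share of regions of 2 to 4 libraries within 10 kb of a region of all 10 was 7.58%, 7.38% and 5.11% in stressed activated replicates 1 to 3, and 7.41% and 8.33% in standard-reared activated replicates 1 and 2. It was 7.29%, 6.91% and 8.22% in stressed non-activated replicates 1 to 3, and 8.08% and 8.14% in standard-reared non-activated replicates 1 and 2. The lowest value, in stressed activated replicate 3, had an interval of 4.03 to 6.38%. Activated libraries averaged 7.16% ± 1.21 and non-activated libraries 7.73% ± 0.592 (SD, n = 5 each), a difference of -0.568 points with an exact permutation p of 0.444 (two-sided). In 3 of the 4 animals with both classes the activated library had the higher share, the exception being stressed replicate 3 (5.11% against 8.22%), and the sign of the difference turned when any of 6 libraries was left out. Stressed and standard-reared animals averaged 7.08% ± 0.389 and 7.92% ± 0.444 (SD, n = 3 each), with an exact permutation p of 0.2 where 0.1 is the smallest possible. Male and female animals averaged 7.33% ± 0.160 and 7.67% ± 0.872 (SD, n = 3 each; exact permutation p = 0.5). None of these 3 exact permutation tests gave a p below 0.2. The rearing difference of -0.836 points was larger than either SD. With 3 animals each and no p below 0.1 possible, that test cannot settle it.

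On the X chromosome lay 233 of the 11424 regions (2.04%), against 3.33% of regions of 5 to 9 libraries, 1.66% of regions of all 10 and 1.11% of regions of 1 library. Female mice have 2 X chromosomes, 1 of which is largely silenced and closed, and males have 1. Among all shared regions of the X chromosome, held by 2 or more libraries, 38.1% were of 2 to 4 libraries. On the 19 autosomes this share ran from 41.6 to 50.6%. With regions of 1 library counted too, the order was the other way. Regions of 2 to 4 libraries were then 20.1% of all merged regions on the X chromosome and 13.2 to 16.5% on the autosomes. As a description, the holders of the 233 regions were counted by sex. Male libraries alone held 89 of them (38.2%), female libraries alone held 5 (2.15%) and both sexes held 139 (59.7%), whereas of 11191 autosomal regions male libraries alone held 58.4%, female libraries alone 0.5004% and both sexes 41.1%. Over all regions of 2 or more libraries, 26.1% were held by male libraries only and 0.24% by female libraries only, and over the regions of 2 to 4 libraries 6620 and 61 were. Both of the longest lists are male.

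The X share of each library's regions of 2 to 4 libraries was 0.948%, 1.96% and 3.50% in stressed activated replicates 1 to 3 and 1.79% and 3.40% in standard-reared activated replicates 1 and 2. It was 1.98%, 3.26% and 3.08% in stressed non-activated replicates 1 to 3 and 4.04% and 2.57% in standard-reared non-activated replicates 1 and 2. The value of 4.04% counts 4 of 99 regions, with an interval of 1.11 to 10.02%. Among the male libraries, stressed non-activated replicate 2 (3.26%, interval 2.12 to 4.77%) lay among the female ones, and the other 4 male libraries lay below all 5 female libraries.

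Male animals averaged 1.95% ± 0.590 and female animals 3.19% ± 0.578 (SD, n = 3 each). The difference of -1.24 points had a two-sided exact permutation p of 0.2, where the smallest possible is 0.1, and an adjusted p of 0.4. It ran from -2.04 points without standard-reared non-activated replicate 2 to -0.714 points without stressed non-activated replicate 1. Within the 6 libraries with the shorter smallest peak, the 4 male libraries had 0.948 to 1.98% and the 2 female libraries 3.40 and 3.50%. By animal these averaged 1.74% ± 0.251 in 3 males and 3.45% ± 0.0710 in 2 females (SD), a difference of -1.71 points with a two-sided exact permutation p of 0.1, the smallest possible (0.2 adjusted over 2 measures). That test was added after the values were seen. Within the other 4, the single male library had 3.26% and the 3 female libraries 2.57 to 4.04%. The difference over all libraries turned to 0.340 points with peaks of a -log10 q of at least 5 and to 0.243 points at equal list length. Its direction thus depended on these settings. In regions of 1 library the X share was 0.402, 0.745 and 2.02% in the male animals and 2.83, 4.89 and 6.01% in the female ones. In regions of 5 to 9 libraries it was 3.10 to 3.40% in male and 3.10 to 3.31% in female animals. Sex was not tested in those 2 classes of region.

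**Figure D5:**
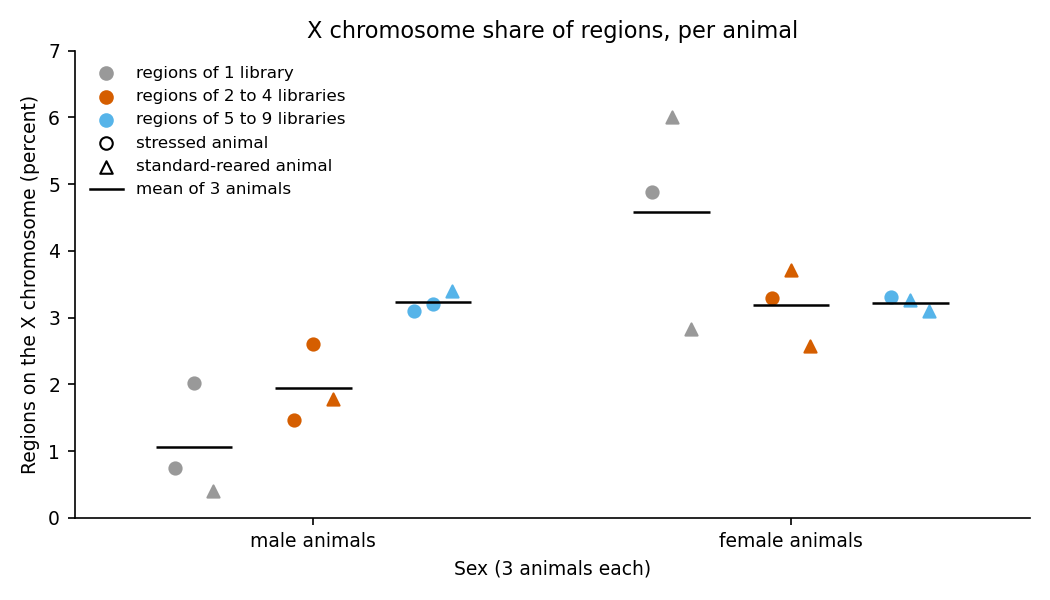
Share of regions on the X chromosome (y axis, percent) per animal, for regions of 1, 2 to 4 and 5 to 9 libraries, in 3 male and 3 female animals; circles are stressed and triangles standard-reared animals, and lines are means. In regions of 2 to 4 libraries the means are 1.95% in male and 3.19% in female animals, and the animals of both sexes overlap. They also overlap in regions of 5 to 9 libraries, and in regions of 1 library all females lie above all males.

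By activation, the X share averaged 2.32% ± 1.10 in activated and 2.99% ± 0.771 in non-activated libraries (SD, 5 libraries each, with a two-sided exact permutation p of 0.302). By rearing it averaged 2.45% ± 0.923 in stressed and 2.69% ± 0.972 in standard-reared animals (SD, n = 3 each; exact permutation p = 0.8). Set against regions of 5 to 9 libraries, with 3.23% ± 0.121 over the 6 animals, the regions of 2 to 4 libraries had 2.57% ± 0.858, a difference of -0.657 points (exact permutation p = 0.0938, adjusted p = 0.3125). Against regions of 1 library, with 2.82% ± 2.25, the difference was -0.242 points (exact permutation p = 0.719). None of these differences passed. The SD between animals was larger in regions of 2 to 4 libraries than in regions of 5 to 9. That order is linked to the rule, since regions with more holders are shared by more animals. A library also held as few as 99 regions of 2 to 4 libraries.

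Position was also tallied by holder, with no test. The share within 10 kb of a region of all 10 was 7.06% in regions held by activated libraries alone, 7.67% in those held by non-activated libraries alone and 7.22% in those of both classes. The X share was 1.66% (20 regions) in those held by activated libraries alone, 4.09% (16 regions) in those held by non-activated libraries alone and 2.00% in those of both classes. It was 1.75% in regions held by both of the longest lists and 3.08% (19 regions) in those held by neither. The 5 X-linked regions of female libraries alone were weak. Their lowest percentile ran from 7.26 to 26.3, and 2 of them lay close together on chromosome X, at 49700791 to 49701235 and at 49703479 to 49704038. Stressed activated replicate 3 held both, the first with stressed non-activated replicate 3 of the same animal and the second with standard-reared non-activated replicate 2.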

How the data were processed

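The data were 10 deposited peak lists from bulk ATAC-seq, 1 for each library, and samples were not pooled for peak calling. Genome build mm39 was used with MACS2 2.2.9.1, SAMtools 1.13, Bowtie2 2.4.5, fastp 0.23.4 and R 4.4.2, per the submitters' processing notes. Settings of the peak caller, a read shift and filters for duplicate or mitochondrial reads were not given in the sources used here, and each could change which weak peaks were called. In the lists deposited by the authors, the fold is a linear ratio of summit pileup over local background, p and q are on the -log10 scale, and the score equals 10 times -log10 q, truncated to a whole number. The lowest -log10 q was 1.30 to 1.34. No read totals are given, so depth is known only through the lists.

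Summit entries of 1 peak were counted once. A whole-number pileup was recovered from each peak's fold and p, with a pseudocount of 1 and a relative misfit under 2e-05 for 100% of peaks in every library. Peaks on chromosomes 1 to 19 and X were merged at 1 bp of overlap. Predictions, shares and exact permutation tests were computed per library or per animal, and tested on simulated data, with SciPy 1.17.1, pandas 2.3.3, NumPy 2.4.6 and Matplotlib 3.10.9 in Python 3.11.15.

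Groups, replicates and sexes came from the labels, and the animal of each library from its library name. Each library is of a single animal per the labels. By their library names, same-numbered libraries of stressed mice come from the same animal. Of the standard-reared libraries, activated replicate 2 was paired with non-activated replicate 1 in that way. Within groups, deviations of the presence of a peak correlated at 0.0893, 0.0779 and -0.0122 in the stressed animals and -0.0749 in the standard-reared one. Pairs of libraries of different animals ran from -0.0890 to 0.0392 in stressed mice. In standard-reared mice they were -0.0749 or 0.0749, since 2 libraries per group let the values differ only in sign. The correlations thus do not settle the pairing of stressed replicate 3 or of the standard-reared animal, which rests on the library names.

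The regions, lists and tests were chosen with earlier results of these data known. The naming rule took the 10 regions with the highest lowest fold percentile over their holders, and up to 3 by the same measure for each exact group or animal. The strongest regions of 3 and of 4 libraries, the X-linked regions of female libraries and the densest windows were picked after their values were seen. The 15 planned tests on gene starts, gene ends and intergenic share, 12 gene lists and 14 motifs were not run, for want of mm39 genes and sequence. The 10 tests on position took their place. The alternatives tried were a limit of 5 on -log10 q, lists shortened to 7075 peaks, 200 bp summit windows, a merging gap of 200 bp, autosomes only, the matched prediction, a replicate block and each library left out. The sex comparison within the 6 libraries with the shorter smallest peak was chosen after seeing the data.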

Additional observations from a re-analysis of the deposited data

Results flagged for a closer look

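A gap between 1 library and the rest of its activation class was looked for in 16 groups of 5 libraries, and by chance about 1 in 20 groups shows one. In the regions of 2 to 4 libraries, stressed non-activated replicate 1 was far higher than the other 4 of its class in 4 measures. It held 9495 of them, where the next library held 1437. Its median fold percentile in them was 42.3, where the next was 20.4, and its median pileup was 14 fragments, where the next was 6. In 13.4% of its peaks there the caller had found several summits, where the next library had 0.139%.

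Standard-reared activated replicate 1 stood above the other 4 activated libraries in 2 measures. Its median pileup in regions of 2 to 4 libraries was 14 fragments, where the next library had 11. In 10.7% of its peaks there the caller had found several summits, where the next had 0.924%.

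Sequence that the comparisons did not use also carried regions of 2 to 4 libraries. There were 9 on Y chromosome sequence, among 28 merged regions there, and 21 on unplaced or unlocalized sequence, among 76.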

How the results depend on the processing

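List length limits these results. A region is counted by whether a list has a peak there, and 93.2% of the regions of 2 to 4 libraries fell out of every list at equal length. Whether chromatin was open or closed where a short list has no peak was not tested. None of the 149 exact permutation tests rerun under another setting passed after adjustment (lowest adjusted p = 0.0794). Those of the replicate block among them were not adjusted. In direction, 115 kept the reported sign while 34 turned. Before adjustment, 3 against 3 animals allow no exact permutation p below 0.1, and sign flips over 6 animals none below 0.03125. Not passing therefore does not show that a difference is absent. Other limits for the distance to genes and other gene sets were not run, for want of an mm39 annotation.

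Limiting peaks to a -log10 q of at least 5 gave 6262 regions of 2 to 4 libraries, 51.3% held by exactly 2, with a median width of 536 bp. The ratios of observed to list-length prediction were then 1.07 for activated libraries alone and 0.368 for both libraries of 1 animal. With shortened lists, 2740 regions had 2 to 4 holders, most of them other regions since only 61 of the 11424 were among them. Of these, 40% were held by exactly 2 and the median width was 547 bp, with ratios of 1.57 for activated alone, 1.38 for non-activated alone and 0.773 for 1 animal. Summit windows gave 1.16 for activated alone and 282 bp, and the merging gap gave 400.0 bp, as its construction implies. The matched prediction gave 0.943, 0.983 and 1.03 for those 3 ratios. The cause of the other shifts was not tested.

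Some differences in X share, in percentage points, turned. With a -log10 q of at least 5 they were 0.340 (male minus female), 0.731 (activated minus non-activated), 0.350 (against regions of 5 to 9 libraries) and 0.734 (against regions of 1 library). With shortened lists they were 0.243 (male minus female), 1.31 (stressed minus standard-reared), 1.01 (against 5 to 9) and 0.265 (against 1). The share within 10 kb of a region of all 10 turned against regions of 5 to 9 libraries, at 0.691 with the q limit, 0.875 with shortened lists and 3.02 with summit windows; against regions of 1 library it was 0.196, 0.965 and 5.74. Summit windows also gave 2.43 (male minus female), 0.859 (stressed minus standard-reared) and 9.77 (activated minus non-activated; exact permutation p = 0.00794, adjusted p = 0.0794), with summits of 1 broad region counted as neighbours by construction.

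With each library left out in turn, the number of regions ran from 7704 (without stressed non-activated replicate 1) to 11998, the percent held by exactly 2 from 50.5 to 58.6 and the median width from 362 to 392 bp. The ratio for activated alone ran from 0.766 to 1.67, the highest without standard-reared activated replicate 1, and was 1.57 without stressed non-activated replicate 1. Without that last library the ratio was 0.534 for non-activated alone (lowest 0.218) and 1.07 for 1 animal (lowest 0.529), and without standard-reared activated replicate 1 the ratio for 1 animal was 1.06. X share differences ran from -2.04 to -0.714 (sex), -0.720 to 0.0999 (rearing), -1.30 to 0.0292 (activation), -0.853 to 0.189 (against 5 to 9) and -0.403 to 0.464 (against 1). Differences in the share within 10 kb ran from -0.525 to 0.607 (sex), -1.20 to -0.310 (rearing), -0.434 to 0.992 (activation), -1.50 to -0.163 (against 5 to 9) and 2.13 to 3.39 (against 1). Within the 6 libraries with the shorter smallest peak, a setting added after the data were seen, male minus female was -1.71 for X share and 0.689 for the share within 10 kb (exact permutation p = 0.1 and 0.7). With the replicate block, within the 4 animals with both classes, activated minus non-activated was -0.640 points for X share (exact permutation p = 0.25) and -0.526 for the share within 10 kb (p = 1, exact; higher in the activated library in 3 of 4 animals), where the smallest possible p is 0.125; it changed no call.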
